A study of Rattus norvegicus with 62 samples.

Results

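The genes described here drive and mark the cell division cycle. They are 44 named genes, of which 9 act in G1 and at entry into S phase, 14 in the licensing and replication of DNA, and 20 in mitosis, together with Mnd1, whose product is best known for pairing chromosomes in meiosis. A gene was measured through the probe set that carries its symbol and no other, and through the one with the highest mean signal where there were several. Such a probe set was found for 41 of the 44 genes, out of 14217 genes in the series, and 40 of the 41 passed the filter on low signals at each week, against 10488 of all genes at 5w and 10538 at 10w. Cdc6 and Tpx2 had no probe set here, Rrm2 had only 2 probe sets that it shares with other genes, and Bub1b stayed below a signal of 100 on all 62 arrays, with 83.4 at most. The tested members were 9 G1 genes, 12 S phase genes, 18 mitotic genes and Mnd1. The genes were listed by function, with earlier results of these data known.

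The livers came from male rats of the Crj:CD(SD)IGS stock and were profiled on 62 Affymetrix arrays. Animals first received an initiator for 1 or 2 weeks. It was 3 mg/kg of diethylnitrosamine in the DEN3 animals and 30 mg/kg in the DEN30 animals, 45 mg/kg of thioacetamide (TAA), 100 mg/kg of methapyrilene (MP), 1000 mg/kg of acetaminophen (APAP), or only the vehicle, methylcellulose (MC). After 2 weeks without it they drank water with 500 ppm of phenobarbital (PB), a tumour promoter in rodent liver, or plain water. All animals underwent partial hepatectomy 1 week into this phase, and the excised tissue is the sample of week 5 (5w). The same animals gave a second sample at the end, after 6 weeks of it (10w), from a liver that had been cut 5 weeks before. There were 5 animals each for MP/PB, TAA/PB and DEN3/PB, and 4 each for APAP/PB, DEN30/PB, MC/PB and MC/water. MC/water is the only treatment without phenobarbital, and no group received an initiator without it. The sources used here do not give the animals' ages. Hepatocyte markers (Alb, Ttr, Apoa1 and Serpina1) were at 21840 or more on each array, so the samples match their label as liver. In such bulk tissue, fewer cells in cycle and less RNA per cell cannot be told apart.

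A quiescent hepatocyte enters the cycle when D-type cyclins with Cdk4 phosphorylate the retinoblastoma protein Rb1, which then releases E2F factors such as E2f1. E2F switches on cyclin E and the genes of replication: the Mcm helicase, its loader Cdt1 with the inhibitor geminin (Gmnn), the clamp Pcna and the nucleotide enzymes Tk1, Tyms and Rrm1. Later Foxm1 and the DREAM and B-Myb complexes drive the genes of G2 and mitosis, among them Cdk1, the A and B cyclins, Plk1, the Aurora kinases and the anaphase activator Cdc20. In rat liver the mitotic genes are mostly low until a loss of tissue or a mitogen sets them off. Phenobarbital is known as a mitogen whose effect on hepatocyte division is brief.

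The motifs these regulators are known to bind were counted in the promoters. RefSeq (GRCr8) gave the 250 bases before the start for 32 of the 44 genes, and motifs were searched on both strands. They were E2F (TTTGGCGC, TTTCCCGC, TTTCGCGC or TTTGCCGC), the cell cycle homology region CHR (TTTGAA or TTCGAA) and CCAAT. Of 27457 promoters of the same length, 1.81% held an E2F motif, 17.3% a CHR and 34.3% a CCAAT. Of 11 S phase promoters, 45.5% held an E2F motif, 27.3% a CHR and 63.6% a CCAAT. Of 15 mitotic promoters 1 held an E2F motif, 9 a CHR and 12 a CCAAT, and of 5 G1 promoters 0, 0 and 2. Such a match is only a description of letters. Printed below are Mki67 and Cdc20 as mitotic genes with both motifs, and Rb1 and Mnd1, the members that passed with phenobarbital at both weeks, which held none of the 3. Capitals mark a CHR or a CCAAT on either strand (ATTGG where CCAAT lies on the other), and in Mki67 the second CHR runs into an ATTGG. Each is 1 unbroken run that ends at the base before the start. All 4 genes lie on the minus strand, with Mki67 at chr1:199952594-199952843, Cdc20 at chr5:137255800-137256049, Rb1 at chr15:54911858-54912107 and Mnd1 at chr2:171794096-171794345.
Mki67: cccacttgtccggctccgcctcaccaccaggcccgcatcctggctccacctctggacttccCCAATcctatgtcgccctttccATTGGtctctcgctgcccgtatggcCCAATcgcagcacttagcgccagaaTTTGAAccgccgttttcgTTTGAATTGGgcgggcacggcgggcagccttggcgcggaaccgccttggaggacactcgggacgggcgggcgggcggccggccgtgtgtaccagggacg
Cdc20: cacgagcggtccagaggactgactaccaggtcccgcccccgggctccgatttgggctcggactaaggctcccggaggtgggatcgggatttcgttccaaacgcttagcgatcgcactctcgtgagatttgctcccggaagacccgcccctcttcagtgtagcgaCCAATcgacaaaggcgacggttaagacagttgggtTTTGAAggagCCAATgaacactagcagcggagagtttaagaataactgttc
Rb1: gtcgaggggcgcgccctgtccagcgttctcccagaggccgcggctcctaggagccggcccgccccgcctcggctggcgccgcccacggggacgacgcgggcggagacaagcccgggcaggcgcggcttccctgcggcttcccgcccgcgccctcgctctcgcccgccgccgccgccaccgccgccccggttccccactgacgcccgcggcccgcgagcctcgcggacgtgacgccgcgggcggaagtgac
Mnd1: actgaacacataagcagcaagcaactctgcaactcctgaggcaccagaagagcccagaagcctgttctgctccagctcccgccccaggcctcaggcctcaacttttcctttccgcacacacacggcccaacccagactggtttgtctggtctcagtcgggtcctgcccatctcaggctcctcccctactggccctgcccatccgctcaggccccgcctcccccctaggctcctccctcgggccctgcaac

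Before the comparisons, the class means (the mean log2 of signal + 25 over the genes of a class on 1 array) show how the animals spread. The mean of the 18 mitotic genes was highest in 10w DEN30/PB (8.10 ± 0.33, SD, n = 4) and 5w APAP/PB (8.02 ± 0.22, n = 4), and lowest in 5w MP/PB (7.38 ± 0.15, n = 5) and 10w MC/water (7.38 ± 0.56, n = 4). Neighbouring groups in this order overlap. At 10w the SD reached 0.58 (DEN3/PB), 0.56 (MC/water) and 0.53 (TAA/PB), while the largest at 5w was 0.35 (DEN30/PB). Single livers stood apart: replicate 3 of 10w MC/water had the highest signal of its group in 16 of 18 mitotic and 11 of 12 S phase genes, and so did replicate 2 of 10w MP/PB and replicate 3 of 10w DEN30/PB in 16 of 18 mitotic genes each. Replicate 1 of 10w TAA/PB was lowest in 15 of 18 mitotic genes and replicate 2 of 10w MC/water in 14 of 18. Values without the first of these are given beside the members called at 10w and the mitotic medians.

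**Figure D1:**
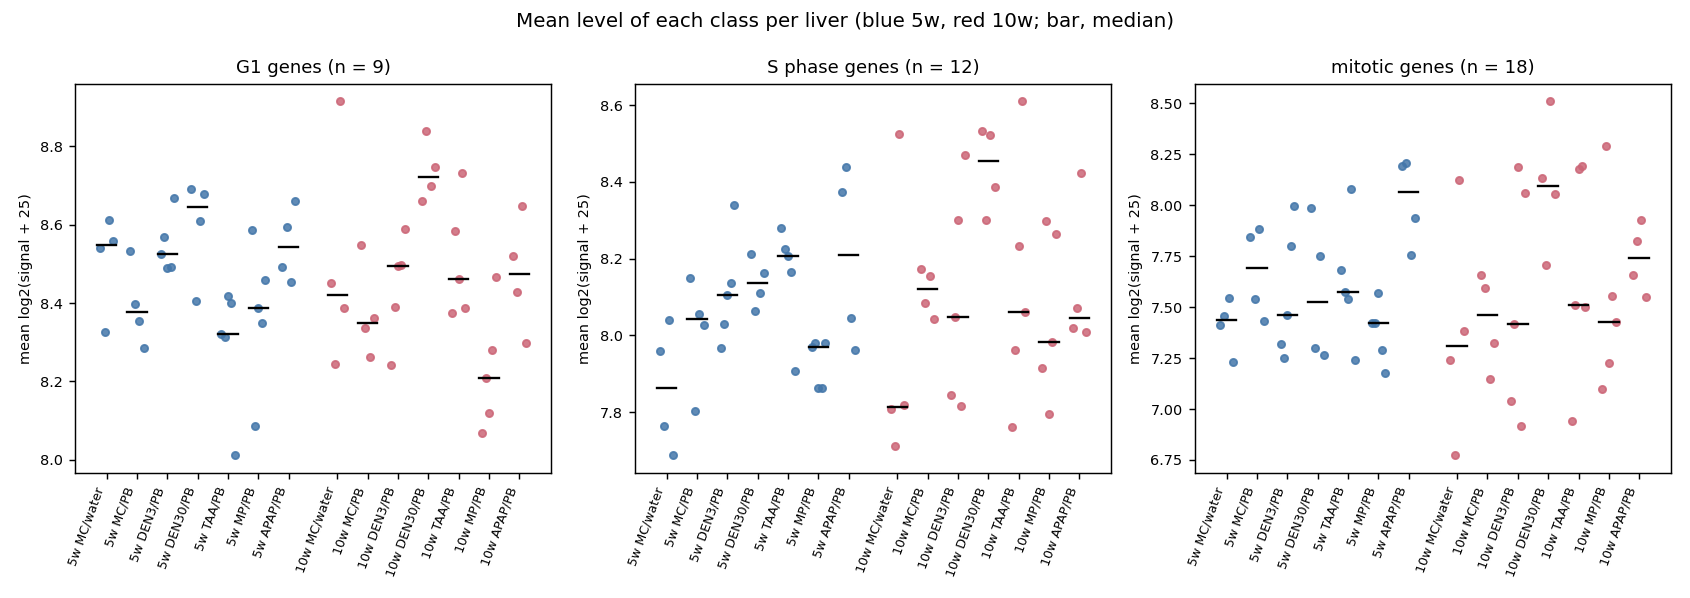
Mean log2(signal + 25) of the G1, S phase and mitotic genes on each array (vertical axes), by group (horizontal axis; blue 5w, red 10w; each point 1 liver, bar the group's median). In 10w MC/water 1 liver lies far above the other 3 in all panels, and the 4 livers of 10w DEN30/PB sit between 7.71 and 8.51 in the mitotic panel, against 7.15 to 7.66 in 10w MC/PB.

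Across the 14 groups, the untreated livers often had the lowest medians and DEN30/PB at 10w or APAP/PB at 5w the highest. Cdk4, the G1 kinase, varied little, from a median of 1596 in 10w MC/water to 2051 in 10w DEN3/PB, and was above 100 on all 62 arrays. The clamp Pcna ran from 1669 in 5w MC/water to 2627 in 10w DEN30/PB, and Tk1 from 374 to 678 between the same groups. The helicase genes Mcm2 (170 to 265) and Mcm6 (139 to 280) had their lowest median in 10w MC/water and their highest in 5w APAP/PB. Among mitotic genes, Cdk1 (138 to 367) and Ccna2 (73.6 to 298) ran from 10w MC/water to 10w DEN30/PB, Ccnb1 from 150 in 5w MC/water to 325 in 5w APAP/PB, and Top2a from 127 in 10w MP/PB to 287 in 5w APAP/PB. Mki67 and Ccna2 reached 100 on only 40 of 62 arrays and Ccne1 on 12, so many of their values are low signals. Of the classes, 6 G1, 6 S phase and 3 mitotic genes reached 100 on all 62.

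The arrays also fell into 2 sets, of 30 and 32 arrays, that carry 11.8% of the variation within groups and hold 2 or 3 arrays of each group. The labels do not name their origin. The class mean was higher in set 1 in 9 of 14 groups for G1, 11 for S phase and 9 for mitotic genes, by a median of 0.08, 0.12 and 0.12. Values within each set are given beside the pooled ones. Scaled means were alike on all arrays (500.23 to 500.27), and between 49.87% and 54.84% of probe sets reached a signal of 100.

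Phenobarbital alone for 1 week, without an initiator, moved 4 of the 40 members: Mnd1 and Kif11 rose, and Ccnd1 and Rb1 fell. Among all genes tested, 1.25% passed in either direction (0.83% higher, 0.42% lower), by limma with Benjamini-Hochberg adjustment over all genes at 0.05. Differences are in log2(signal + 25), which understates the change of low genes, with standard errors. The median difference was -0.04 for the 9 G1 genes, 0.16 for the 12 S phase genes and 0.15 for the 18 mitotic genes, 15 of which lay above 0, against -0.003 for all genes tested. Within array sets 1 and 2 the mitotic median was 0.37 and 0.09.

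Mnd1 gave the largest rise at both weeks. At 5w its signal was 67.1, 115, 93.1 and 62.8 in the MC/water livers and 478, 330, 216 and 226 in the MC/PB livers. Each promoted liver lay above each untreated one, and the difference was 1.58 ± 0.23, or 2.996-fold (adjusted p = 0.000101). At 10w it was 106, 147, 142 and 74.1 in MC/water and 444, 265, 326 and 194 in MC/PB, again without overlap, with a difference of 1.20 ± 0.22 (2.30-fold, adjusted p = 0.00166), and 1.29 (0.00254) without MC/water replicate 3. Within sets 1 and 2 the differences were 1.74 (adjusted p = 0.0485) and 1.43 (0.171) at 5w, and 1.45 (0.0224) and 0.95 (0.267) at 10w. The effect at 10w minus that at 5w was -0.38 ± 0.33, with a 95% interval from -1.04 to 0.27. Mnd1 stayed high in each initiated group, with group medians from 264 to 403 at 5w and from 300.4 to 341 at 10w. Against MC/PB it did not pass for any initiator, with differences between -0.19 and 0.35 over the 10 comparisons. The protein works with Hop2 in strand exchange between homologous chromosomes and is not a component of the mitotic engine.

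Rb1, the brake on E2F, was lower under phenobarbital at both weeks. At 5w the MC/water livers had 531, 635, 751 and 1245 and the MC/PB livers 340, 596, 408 and 335. The ranges overlapped through a single promoted liver, and the difference was -0.84 ± 0.21 (adjusted p = 0.0409). At 10w the untreated livers had 779, 912, 913 and 951, and the promoted ones 349.5, 345, 259 and 295. These lie far apart, with a difference of -1.44 ± 0.22, 2.72-fold lower (adjusted p = 0.000125). Within sets 1 and 2 the difference was -0.73 (adjusted p = 0.244) and -0.95 (0.436) at 5w, and -1.41 (0.048) and -1.48 (0.0601) at 10w. The effect at 10w minus that at 5w was -0.61 ± 0.31 (95% interval -1.23 to 0.02, adjusted p = 1). The call at 5w was lost without MC/water replicate 4, the liver at 1245 (difference -0.60, adjusted p = 0.229), without MC/water replicate 3 (0.0929), or without MC/PB replicate 1 (0.183), 3 (0.0851) or 4 (0.129). It was also lost with no filter (0.0567) and with the 8 arrays of these groups alone (0.213). The 10w call held without each of the 8 livers in turn (adjusted p at most 0.00101; -1.43 and 0.00073 without MC/water replicate 3).

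Cyclin D1 (Ccnd1), the sensor of mitogens, was lower after 1 week of phenobarbital. Its signal was 2123, 1073, 1569 and 1563 in 5w MC/water and 1186, 507, 731 and 778 in 5w MC/PB. Only the highest promoted liver reached into the untreated range, and the difference was -0.98 ± 0.25 (adjusted p = 0.0356), with -0.95 in set 1 and -1.02 in set 2 (adjusted p = 0.261 and 0.337). A pair of further Ccnd1 probe sets gave -0.72 ± 0.18 (adjusted p = 0.0386) and -0.89 ± 0.21 (0.0248). The call was lost without MC/water replicate 1 (0.153), 3 (0.0879) or 4 (0.0961), without MC/PB replicate 2 (0.161), 3 (0.0851) or 4 (0.0686), and with only the 8 arrays compared (0.118). At 10w the untreated livers had 2254, 1203, 2772 and 2037 and the promoted ones 2334, 968, 1098 and 950, a difference of -0.66 ± 0.34 that did not pass (adjusted p = 0.396). Replicate 1 of 10w MC/PB stood apart from the other 3.

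Kif11, the kinesin that pushes the spindle poles apart, was the only mitotic gene past the threshold. In 5w MC/water it was at 63.6, 72.1, 91.7 and 88.5, all below a signal of 100, and in 5w MC/PB at 188, 144, 167 and 142. The groups did not overlap, and the difference was 0.84 ± 0.20 (adjusted p = 0.0258), with 0.99 in set 1 and 0.68 in set 2 (adjusted p = 0.224 and 0.654). The other Kif11 probe set gave 0.35 ± 0.33 (adjusted p = 0.837), so the probe sets disagree in the call. The call was lost without MC/water replicate 1 (0.103) or 2 (0.0656), without MC/PB replicate 1 (0.127) or 3 (0.0647), and with only the 8 arrays compared (0.0798). At 10w the difference was 0.44 ± 0.23 (adjusted p = 0.417).

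**Figure D2:**
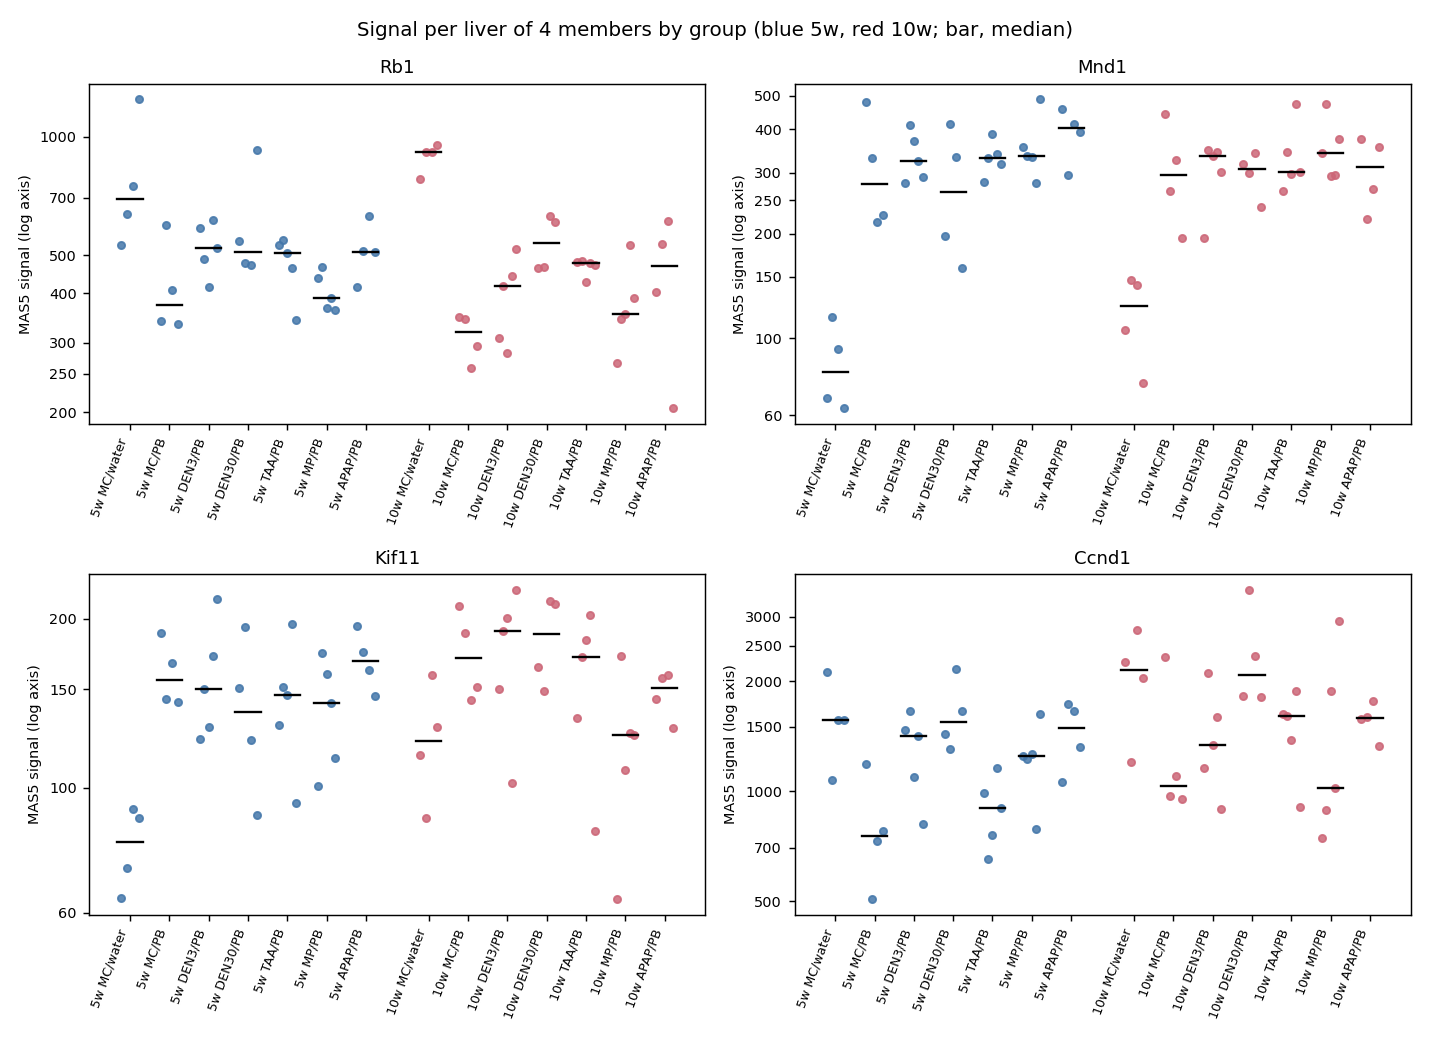
MAS5 signal (vertical axes, log scale) of Rb1, Mnd1, Kif11 and Ccnd1 in each liver by group (horizontal axes; blue 5w, red 10w; bar, median). The MC/water livers stand apart for Rb1 at 10w (779 to 951, against 204.5 to 628 in the other 10w groups) and for Mnd1 at both weeks, while the Ccnd1 groups overlap in most cases.

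The remaining members showed no call with phenobarbital alone. 5 members were higher at 5w without overlap (Ccne1, Mcm3, Ccnb1, Kif11 and Mnd1; 3.54% of all genes were), and 0 were lower without overlap (2.9%). Cyclin B1 (Ccnb1), the mitotic partner of Cdk1, ranged from 125 to 209 in 5w MC/water and from 219 to 319 in 5w MC/PB, with a difference of 0.67 ± 0.30 (adjusted p = 0.379). Cyclin A2 (Ccna2), which bridges S phase and mitosis, differed by 0.59 ± 0.31 (0.51) and the proliferation marker Mki67 by 0.46 ± 0.24 (0.503). The second Ccnb1 probe set gave 0.13 ± 0.33 (0.965). Topoisomerase Top2a differed by -0.13 ± 0.26, and by 0.41 ± 0.37 on its second probe set, so its sign is not settled. Cdk1 itself differed by 0.10 ± 0.27. Among S phase genes Pcna differed by 0.27 ± 0.10 (0.217), Mcm2 by 0.35 ± 0.17 (0.449), Tk1 by 0.23 ± 0.15 (0.664) and Mcm6 by -0.03 ± 0.31 (0.992). The 95% intervals, not adjusted for the number of genes, lay above 0 for Ccnb1 (0.07 to 1.28), Pcna (0.07 to 0.46) and Mcm2 (0.005 to 0.70), and they held 0 for the other genes named here except Kif11 and Mnd1.

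After 6 weeks of phenobarbital, 2 of 40 members passed, Rb1 lower and Mnd1 higher, against 2.26% of all genes. These were also the only members without overlap (all genes 5.08% higher, 4.06% lower). The median difference was 0.03 for G1, 0.25 for S phase and 0.07 for mitotic genes, with 11 of the 18 mitotic genes above 0. The mitotic median moved from 0.07 to 0.27 without MC/water replicate 3, to -0.16 without replicate 2 and to -0.06 without replicate 1, and within sets 1 and 2 it was -0.17 and 0.30. Without MC/PB replicate 1 or 2 it was -0.063 and -0.015. Its direction at 10w therefore changes with single livers of either group. Whether the effect of phenobarbital differed between the weeks was tested in 1 fit over all 62 arrays. By limma, 0 of 40 members and 0 of 10903 genes passed. At an unadjusted p under 0.05, 2 members were lower (Birc5 and Cks2), as were 2.13% of all genes (4.5% in either direction).

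Markers of other liver cells were read beside these members. Epcam, 1 of 2 tested cholangiocyte genes, was higher with phenobarbital at both weeks and in the initiated groups. Its difference was 0.80 ± 0.15 at 5w and 1.26 ± 0.24 at 10w, while Krt19, the other one tested, differed by 0.16 ± 0.31 (adjusted p = 0.934) and -0.27 ± 0.24 (0.703). The summed signal of 4 of the 5 listed cholangiocyte genes ran from 648 to 837 in 5w MC/water and from 998 to 1433 in 5w MC/PB, and from 618 to 1011 and 1312 to 2145 at 10w, without overlap at either week. That sum is mostly Epcam, whose median over all arrays was 1253 against 128 for Krt19, and Krt7 and Cldn4 were below 100 on all 62 arrays. Cd14, 1 of 6 macrophage genes, was higher at 10w, and 0 of 4 hepatocyte, 6 stellate, 5 endothelial and 2 erythroid genes passed with phenobarbital alone at either week. Their part in the levels of Rb1, Mnd1, Ccnd1 and Kif11 was not tested.

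Next, the 5 initiated groups under phenobarbital were averaged and set against the same MC/water livers, which this comparison shares with the one above. At 5w 6 of 40 members passed (all genes 4.43%): Rb1 was lower, and Mnd1, Kif11, Mki67, Tk1 and Pcna were higher. Tk1 and Pcna make DNA precursors and hold the polymerase on its template. Thymidine kinase (Tk1) lay between 340.5 and 420 in MC/water, while the initiated group medians lay between 474 (MP/PB) and 666 (APAP/PB), a difference of 0.46 ± 0.12 (adjusted p = 0.0179). The other tested Tk1 probe set gave 0.27 ± 0.13 (adjusted p = 0.314). Pcna lay between 1396 and 1851 in MC/water, with initiated medians from 1794 (MP/PB) to 2230 (APAP/PB), and differed by 0.32 ± 0.07 (adjusted p = 0.00724).

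Mki67 lay between 53.8 and 89.2 in MC/water, all below a signal of 100, and its initiated medians ran from 106 (MP/PB) to 190 (APAP/PB). The difference was 0.65 ± 0.18 (adjusted p = 0.0365; 0.0507 after quantile normalization). Kif11 differed by 0.73 ± 0.15 (adjusted p = 0.00355), but by 0.29 ± 0.25 (0.69) on its second probe set. The difference of Rb1 was -0.58 ± 0.16 (adjusted p = 0.0369; 0.0504 with no filter) and that of Mnd1 1.72 ± 0.18 (7.74e-08). Only Mnd1 showed no overlap between the 4 untreated and 23 initiated livers, as 0.734% of all genes did in that direction. All 6 kept their direction within each set, where only Mnd1 passed (Rb1 -0.36 and -0.78, Pcna 0.29 and 0.36, Tk1 0.43 and 0.47, Mki67 0.56 and 0.76, Kif11 0.74 and 0.71, Mnd1 1.77 and 1.67). Without MC/water replicate 4 the calls of Rb1 (0.358), Pcna (0.0972), Tk1 (0.0787) and Mki67 (0.208) were lost, which leaves 2 of 6. Without replicate 3 those of Rb1 (0.11), Tk1 (0.104) and Mki67 (0.078) were lost, and Mki67 also without replicate 1 (0.0874) or 2 (0.0545). Mitotic genes had a median difference of 0.14 with 16 of 18 above 0, S phase genes 0.19 with 11 of 12, and all genes 0.002.

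At 10w 2 of 40 members passed in this comparison while 8.89% of all genes did. Rb1 was lower, with a difference of -1.01 ± 0.17 (adjusted p = 0.000168; -0.96 and -1.06 within sets, adjusted p = 0.0527 and 0.0245) and Mnd1 higher, with one of 1.29 ± 0.17 (6.45e-06; 1.14 and 1.42 within sets, 0.0125 and 0.0044). In both, none of the initiated livers overlapped with the untreated ones (all genes 0.531% lower, 1.11% higher). Without MC/water replicate 3 they differed by -0.99 (adjusted p = 0.00157) and 1.38 (2.5e-05). Pcna narrowly missed the threshold (0.34 ± 0.11, adjusted p = 0.0555), and it passed with the replicate number as a block (0.0425) and with the array set as a block (0.048). The mitotic median was 0.33, with 16 of 18 genes above 0, and it was 0.22, 0.14, 0.53 and 0.32 without MC/water replicate 1, 2, 3 and 4. Within sets 1 and 2 it was 0.02 and 0.48.

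**Figure D3:**
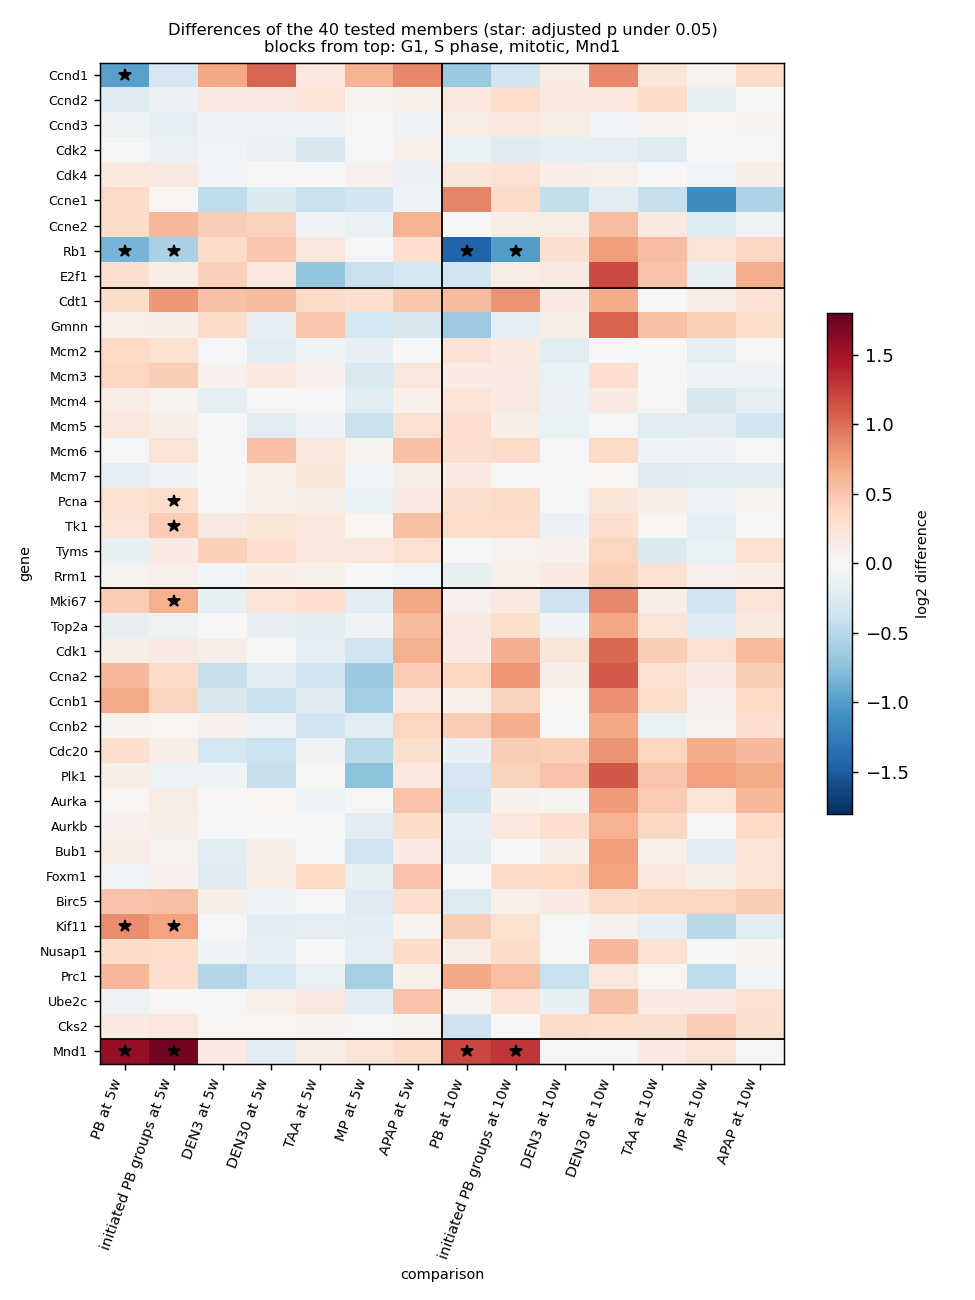
Log2 differences (colour scale) of the 40 tested members (rows; G1, S phase and mitotic genes, then Mnd1) in the 14 comparisons within a week (columns). Stars mark an adjusted p under 0.05 and occur only in the 4 comparisons with MC/water, and the column of DEN30 at 10w is positive in all 18 mitotic genes, without a star.

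The initiators were then compared with MC/PB, so that both sides received phenobarbital and the earlier exposure alone differs. The 5 comparisons of a week share the MC/PB livers. By limma, 0 of 40 members passed in each of the 10. The shares of all genes that passed were also small: 0.0381% for DEN3, 0.114% for DEN30, 0.0191% for TAA, 0.0572% for MP and 0% for APAP at 5w, and 0.019%, 0.0285%, 0.00949%, 0.0854% and 0.0664% in the same order at 10w. At an unadjusted p under 0.05 there were 2, 2, 0, 6 and 7 members at 5w, where all genes gave 5.21%, 5.82%, 5.64%, 8.1% and 7.2%. At 10w there were 0, 11, 1, 4 and 1, where all genes gave 4.55%, 5.18%, 4.58%, 7.69% and 6.07%. The values that follow therefore describe these livers and are not calls.

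At 10w the mean mitotic level was highest in DEN30/PB (8.10), with livers from 7.71 to 8.51. The highest liver of the other 10w groups reached 8.29 (MP/PB), 8.19 (TAA/PB), 8.19 (DEN3/PB), 8.13 (MC/water), 7.93 (APAP/PB) and 7.66 (MC/PB). Only MC/PB therefore did not overlap with DEN30/PB. All 18 mitotic genes lay above MC/PB, with a median of 0.71 (range 0.08 to 1.12), against 0.02 for all genes. The medians were 0.30 for S phase and 0.19 for G1 genes. There were 10 members higher without overlap (all genes 1.99%): Rb1, E2f1, Pcna, Rrm1, Mki67, Ccna2, Ccnb2, Cdc20, Aurka and Bub1. For Aurka the lowest DEN30/PB liver was at 98.91 and the highest MC/PB liver at 98.8, so the groups nearly touch. All 11 members with an unadjusted p under 0.05 were higher (all genes 3.55%). The mitotic median was 0.80 in set 1 and 0.43 in set 2, and it lay between 0.53 and 0.84 with each of the 8 livers left out in turn.

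Mki67, printed above with its CHR and CCAAT motifs, had 174, 224, 284 and 248 in 10w DEN30/PB and 161, 153, 82.4 and 83.6 in 10w MC/PB. The 4 treated livers lie above all 4 others, by a narrow margin, with a difference of 0.86 ± 0.48 (adjusted p = 0.979). Cdc20, which opens anaphase, had 279, 251, 439 and 243 against 169, 192, 117 and 159.5, a wider gap with a difference of 0.81 ± 0.28 (adjusted p = 0.677). Ccna2 had 356, 152, 414 and 239.5 against 128, 122, 91.3 and 118.5, or 1.10 ± 0.48 (0.896). Bub1, of the spindle checkpoint, had 155, 149, 240.1 and 175 against 129.5, 108, 83.5 and 67.3, or 0.76 ± 0.34 (0.909). Cdk1 (369, 232, 551 and 364 against 278, 171, 80.1 and 184) overlapped, with a difference of 1.03 ± 0.41 (0.883). Replicate 3 was the highest DEN30/PB liver in each of these, and replicate 2 the lowest in Ccna2, Bub1 and Cdk1.

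Rb1 and E2f1 of the 9 G1 genes and Rrm1 and Pcna of the 12 S phase genes were without overlap in these livers, while Ccnd3 (-0.05), Cdk2 (-0.17) and Ccne1 (-0.19) differed the other way. E2f1 had 147, 117, 129 and 139 in 10w DEN30/PB and 26.5, 67.4, 21.1 and 81.5 in 10w MC/PB, without overlap, at 1.18 ± 0.46 (adjusted p = 0.881). Rrm1, the large subunit of ribonucleotide reductase, had 448, 386, 418 and 427 against 268, 371, 276 and 308, or 0.44 ± 0.15 (0.677). Rb1, the repressor, was higher too, at 463, 468, 628 and 608 against 349.5, 345, 259 and 295, or 0.75 ± 0.22 (0.553). It thus lay between MC/PB and the untreated livers. At 5w the DEN30/PB livers showed no such shift in mitotic genes: the median was -0.09, with 8 of 18 above 0. Between weeks the mitotic median in DEN30/PB was 0.53 with all 18 above 0, and 0 of 40 members passed. The difference between the DEN30 effects at 5w and 10w was not tested.

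**Figure D4:**
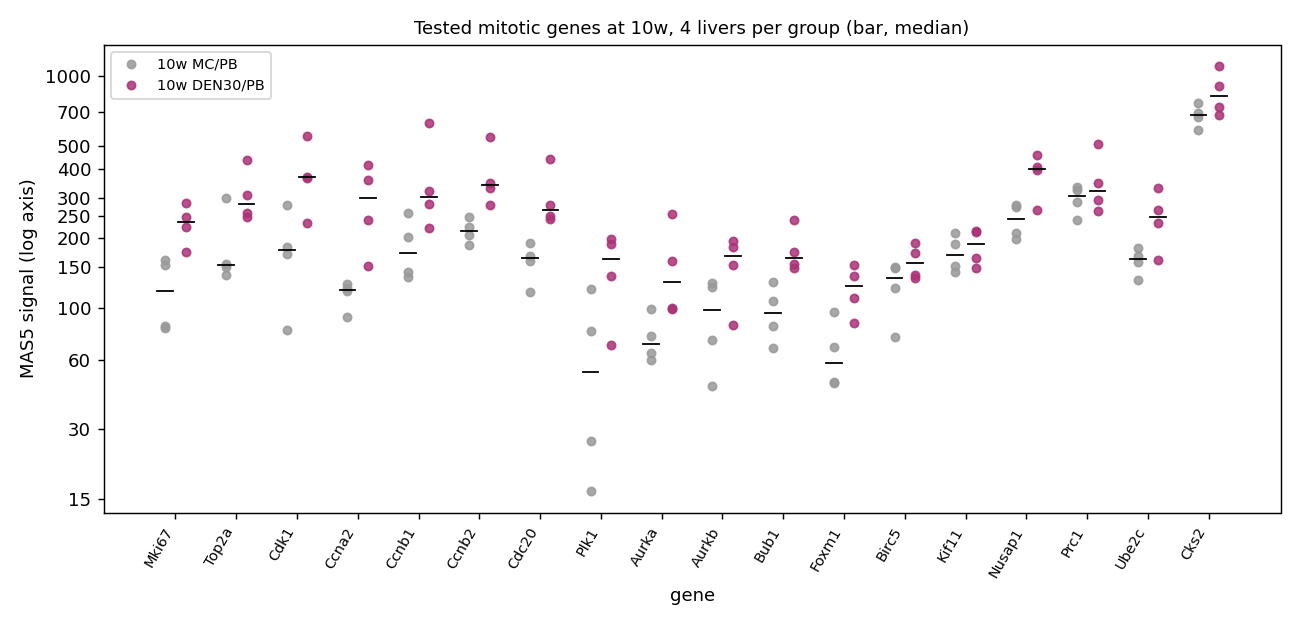
MAS5 signal (vertical axis, log scale) of the 18 tested mitotic genes (horizontal axis) in 4 livers of 10w MC/PB (grey) and 4 of 10w DEN30/PB (purple); bars are medians. The purple median is above the grey one in each gene, and the points do not overlap for Mki67, Ccna2, Ccnb2, Cdc20, Aurka and Bub1.

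Other cell types gave no call beside these levels. Of 6 macrophage, 6 stellate, 5 endothelial, 4 hepatocyte, 3 T cell and 2 cholangiocyte genes tested at 10w, 0 passed for DEN30. Of all genes only 0.0285% did. The cholangiocyte gene Krt19 differed by 0.64 ± 0.24 (adjusted p = 0.849) and Epcam by -0.02 ± 0.24 (0.999). Summed cholangiocyte signal (4 of 5 genes) ran from 1312 to 2145 in 10w MC/PB and from 1010 to 2839 in 10w DEN30/PB. Summed T cell signal (6 genes) ran from 421 to 771 in 10w MC/PB and from 488 to 820 in 10w DEN30/PB, with Cd3d at or above 100 on 1 of 62 arrays and Cd8a on 3. Summed macrophage signal (6 of 7 genes had a probe set) ran from 12230 to 14850 and from 11070 to 17760. Summed B cell signal (2 of 4 genes) ran from 64.9 to 102 and from 42.6 to 181. Their part in the mitotic levels was not tested.

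At 5w the mean mitotic level was highest in APAP/PB, with livers from 7.76 to 8.21. The highest livers of TAA/PB (8.08), DEN3/PB (7.996), DEN30/PB (7.985) and MC/PB (7.88) lay within that range. All 18 mitotic genes lay above MC/PB there, with a median of 0.33 (all genes -0.002), 0.11 in set 1 and 0.51 in set 2. There were 3 members higher without overlap (Tk1, Mki67 and Ube2c; all genes 1.67%). Mki67 had 180, 300, 152 and 199 in 5w APAP/PB and 118, 127, 136 and 83.1 in 5w MC/PB, or 0.70 ± 0.24 (adjusted p = 0.466). Tk1 had 672, 600, 660 and 679 against 534, 448, 400.2 and 406, or 0.53 ± 0.15 (0.288), and the other tested probe set of Tk1 differed by 0.17 ± 0.16 (0.904). The ubiquitin-conjugating enzyme Ube2c, which works with Cdc20, had 305, 296, 184 and 218 against 175, 141, 167 and 179, or 0.51 ± 0.20 (0.605). At 10w the mitotic median for APAP was 0.30, with 16 of 18 above 0. Across the weeks in APAP/PB it was -0.31, with 1 of 18 genes above 0 and 0 of 40 members past the threshold.

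For MP the values at 5w lay the other way. There 1 of 18 mitotic genes lay above MC/PB, with a median of -0.20 (-0.33 in set 1 and -0.19 in set 2), and Ccna2 (-0.66 ± 0.29, adjusted p = 0.555), Ccnb1 (-0.61 ± 0.28, 0.575), Prc1 (-0.59 ± 0.26, 0.563) and Cdc20 (-0.48 ± 0.23, 0.614) had an unadjusted p under 0.05. The second Cdc20 probe set differed the other way (0.18 ± 0.33, 0.963). At 10w the mitotic median was 0.09 with 13 of 18 above 0, but -0.26 in set 1 and 0.30 in set 2. Cyclin E1 (Ccne1), which fires S phase with Cdk2, was at 23.7, 30.8, 20.1, 53.2 and 23.1 in 10w MP/PB and at 127, 75.9, 100.9 and 72.9 in 10w MC/PB. The groups did not overlap and the difference was -1.12 ± 0.35 (adjusted p = 0.362), at signals below 100 on 7 of these 9 arrays. Cks2, a small subunit of mitotic Cdk complexes, was higher without overlap, at 949, 1220, 794, 1009 and 783 against 696, 669, 587 and 768 (0.46 ± 0.18, 0.509). These were the only members without overlap for MP at 10w, where 1.3% of all genes were lower and 1.23% higher in that way.

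For DEN3 and TAA the mitotic medians were -0.05 (DEN3) and -0.05 (TAA) at 5w and 0.08 and 0.27 at 10w. For DEN3 at 10w it was 0.36 in set 1 and -0.36 in set 2, so its direction differs between the sets. Rb1 for TAA at 10w was higher without overlap (0.56 ± 0.21, adjusted p = 0.999; all genes 0.721%). Ccnd1 was above MC/PB in all 5 initiated groups at 5w. The largest difference was for DEN30, with 1432, 1302, 2167 and 1657 in 5w DEN30/PB against 1186, 507, 731 and 778, a difference of 1.05 ± 0.25 (adjusted p = 0.0971). The groups did not overlap (2.21% of all genes were higher in that way), and the difference passed without MC/PB replicate 1. The further Ccnd1 probe sets gave smaller differences here, 0.61 ± 0.18 (adjusted p = 0.417) and 0.75 ± 0.21 (0.346). Against MC/water, the mean of the initiated groups differed by -0.30 ± 0.19 (0.472) in Ccnd1.

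Between the weeks, in the fit that does not use the pairing of animals, 0 of 40 members passed in each of the 7 treatments by limma, where all genes gave 0.0459% in MC/water, 1.31% in MC/PB, 2.89% in DEN3/PB, 0% in DEN30/PB, 1.77% in TAA/PB, 1.34% in MP/PB and 1.47% in APAP/PB. At an unadjusted p under 0.05 there were 3 members in MC/water, 2 in MC/PB, 1 in DEN3/PB, 5 in DEN30/PB, 1 in TAA/PB, 2 in MP/PB and 2 in APAP/PB, with 6.52%, 11.5%, 15%, 8.02%, 12.5%, 12% and 12.3% of all genes. With the animal as a block, which does use it, Ccnd1 in TAA/PB (0.70 ± 0.22, adjusted p = 0.0425) and Ccne1 in MP/PB (-0.85 ± 0.26, 0.044) passed. The shares above belong to the fit without the pairing, and those of all genes with the animal block are not given here. A contrast over all 7 treatments was added after the data were seen, because Ccnd1 and Pcna were higher at 10w in most animals, and so it is no independent evidence for either. In it 24.7% of all genes passed and 2 of 40 members did.

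Ccnd1 was higher at 10w in 27 of 31 animals, with median changes from 0.05 (APAP/PB) to 0.74 (MC/PB), and an average of 0.37 ± 0.11 (adjusted p = 0.00956). It was higher in all animals of MC/water, MC/PB, DEN30/PB and TAA/PB and lower in 2 of 5 MP/PB animals, 1 of 5 DEN3/PB animals and 1 of 4 APAP/PB animals. Pcna was higher in 26 of 31 animals, with an average of 0.19 ± 0.04 (adjusted p = 0.00102). Within sets 1 and 2 Ccnd1 gave 0.36 (0.111) and 0.39 (0.0996) and Pcna 0.14 (0.228) and 0.22 (0.0152). With the animal as a block Ccne1 (-0.32 ± 0.11, 0.0141) and Cdk2 (-0.14 ± 0.05, 0.0146) were lower as well, in a fit whose share of all genes is not given here. The mitotic median over all treatments was 0.01, with 11 of 18 genes above 0, and Mki67 was higher in 19 of 31 animals. Other cell markers moved over the same time: in the contrast over all treatments 3 of 5 endothelial genes (Kdr, Lyve1 and Stab2), 4 of 6 stellate genes (Col1a1, Col3a1, Lrat and Reln) and 1 of 2 erythroid genes (Alas2) were lower, and Epcam and Cd14 were higher. The summed endothelial signal ran from 10130 to 10660 in 5w MC/water and from 7747 to 9080 in 10w MC/water, and the median erythroid sum was 623 and 413. Their part in the levels of Ccnd1 and Pcna was not tested.

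**Figure D5:**
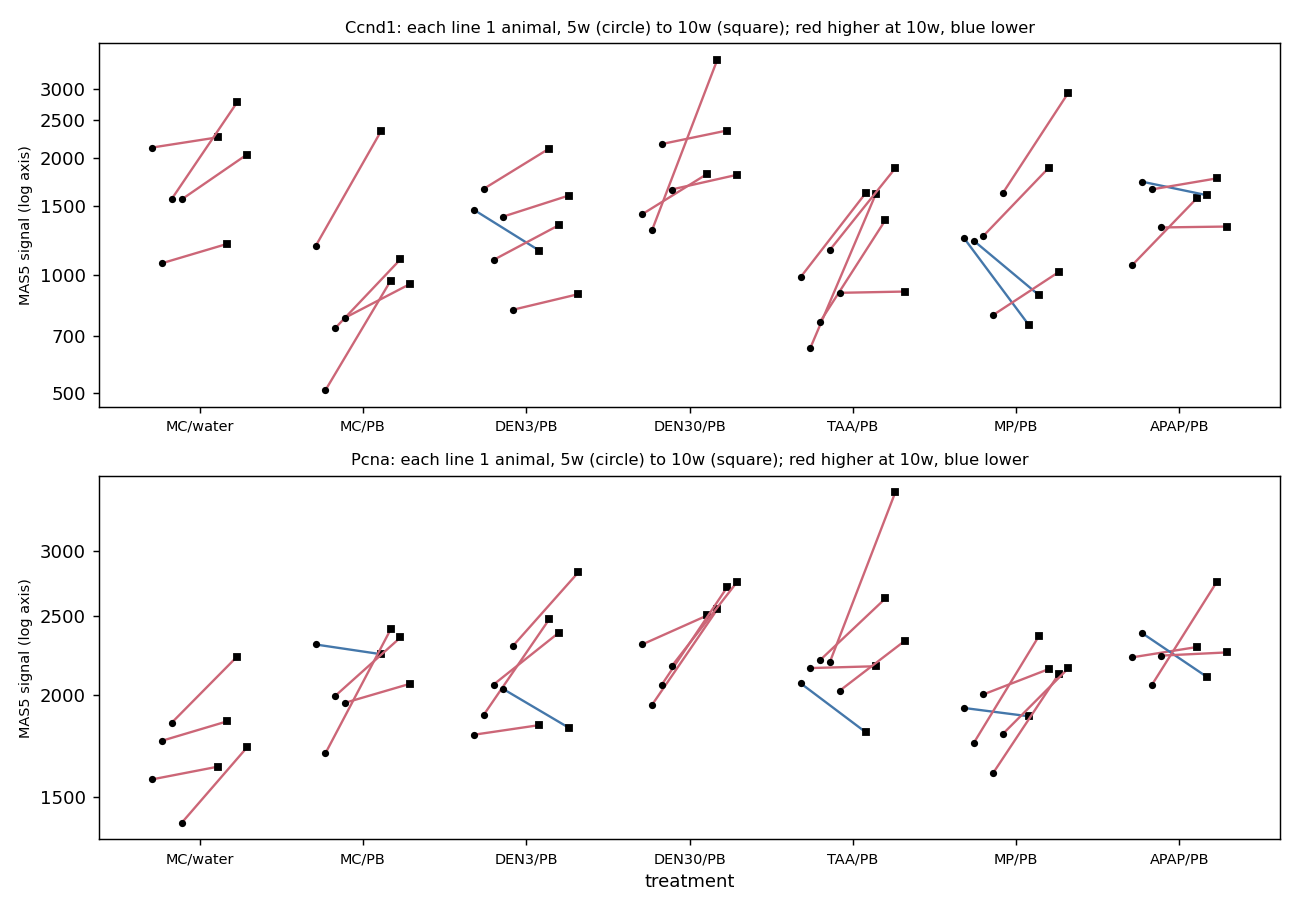
MAS5 signal (vertical axes, log scale) of Ccnd1 and Pcna at 5w (circle) and 10w (square), joined for each of 31 animals, by treatment (horizontal axis). Red lines, the animals higher at 10w, number 27 for Ccnd1 and 26 for Pcna, and blue lines number 4 and 5.

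Genes of the same pathway outside the members were read from 4 lists. With phenobarbital alone at 5w, 1 of 14 tested inhibitors of the cycle was higher, the stress gene Gadd45a (1.39 ± 0.34, adjusted p = 0.0309; all genes 1.25%), and 0 of 18 growth-signal, 39 replication and 26 mitosis genes passed. At 10w 0 passed in each of the 4 lists. In the initiated livers, 7 of 97 listed genes passed at 5w and 7 of 99 at 10w, where 4.43% and 8.89% of all genes did. At 5w Dut (0.36 ± 0.08, 0.00456) and Hells (0.50 ± 0.13, 0.0189) of 39 replication genes were higher, Orc4 (-0.25 ± 0.07, 0.0276) was lower, and Mad2l1 (0.69 ± 0.19, 0.0367) and Stmn1 (0.57 ± 0.15, 0.0188) of 26 mitosis genes were higher. Ccng1, an inhibitor under p53, was higher (0.48 ± 0.12, 0.0196), and the receptor Egfr was lower (-0.44 ± 0.13, 0.0452). At 10w the antiproliferative Tob1 was lower without overlap (-0.73 ± 0.11, 7.97e-05), and Rbl2, a relative of Rb1, was lower with overlap (-0.34 ± 0.09, 0.0198). Gadd45a (0.82 ± 0.21, 0.0111), Stmn1 (1.11 ± 0.27, 0.00803) and Zwint (0.69 ± 0.20, 0.0261) were higher then, and Mcm10 (-0.80 ± 0.18, 0.00384) and Orc4 (-0.31 ± 0.08, 0.0121) lower.

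For DEN30 at 10w the 26 further mitosis genes had a median of 0.46 and the 40 replication genes 0.15, with 0 calls, and for APAP at 5w the mitosis genes had 0.27. For MP at 5w it was -0.13.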

How the data were processed

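Liver RNA of 62 samples was hybridised to Affymetrix rat arrays, and the authors deposited linear signal intensity values. The submitters' processing notes name MAS5 5.0, and the sources used here give neither the array model nor a scaling target. Groups and doses came from the labels. An offset of 25 was added before log2. A probe set was kept if it reached 100 on at least 4 arrays of a fit, and control probe sets were left out. Of the probe sets, 20826 had 1 gene symbol, from the platform annotation supplied with the series. Contrasts were tested with limma 3.58.1 under R 4.3.3 (lmFit, then contrasts.fit, then eBayes with a trend), two-sided, on the 31 arrays of a week or on all 62, with Benjamini-Hochberg adjustment over all genes tested at 0.05. Values are mean ± SD for levels and ± standard error for differences, and the number of arrays limits the precision. The steps were tested on simulated data. All 62 sample columns were used.

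An animal gave a sample at each week, and samples of the same treatment and replicate number were taken as the same animal. To check that pairing, residuals of the 31 pairs correlated at 0.211 to 0.394, against -0.27 to 0.104 for other numbers of a treatment, and 62 of 62 arrays matched their own number best. Within a week a number names different animals: 30 of 48 same-numbered pairs correlated above 0.1, and all 48 lay in the same array set, so the numbers were not taken as pairs there. The array sets are the sides of the residuals' first principal component.

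The members, their classes and the gene lists were chosen with earlier results of these data known. The genes given with values are those that passed, a set list of 15 leading members, and some of those without overlap in the comparisons described. Rrm2, on that list, had no probe set of its own and so no value. The alternatives tried were quantile normalization, a fit without the offset, one without the filter, use of all probe sets, the array set as a block or each set alone, the replicate or animal as a block, only the groups compared, and each library left out. Promoters came from RefSeq (GRCr8).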

Additional observations from a re-analysis of the deposited data

Results flagged for a closer look

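Each group of 4 or 5 livers was searched for 1 value far from the rest by Dixon's ratio, over 18 quantities in 14 groups. Of 252 sets of values checked, 13 had such a value, where chance gives about 1 in 20.

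Replicate 5 of 5w TAA/PB stood low in Mcm6 (67.98, the others 197.3 to 275.1), in Ccne1 (15.99, the others 73.24 to 111.4) and in the G1 class mean (8.013, the others 8.313 to 8.418). Replicate 1 of 5w MC/PB was high in Mcm6 (229.8, the others 133.6 to 141.4), and replicate 1 of 10w MC/PB was high in Ccnd1 (2334, the others 950 to 1098) and Top2a (299.9, the others 139.3 to 155.2). Replicate 3 of 10w MC/water was high in the S phase class mean (8.525, the others 7.713 to 7.819).

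In APAP/PB, Mcm2 was low in replicate 4 at 5w (148.5, the others 256.3 to 276.7) and high in replicate 3 at 10w (329.4, the others 218.1 to 229), and the latter liver was high in the S phase class mean (8.422, the others 8.01 to 8.072). Replicate 2 of 10w MP/PB was high in Ccnb1 (398.7, the others 132.8 to 168.3). Replicate 3 of 10w TAA/PB was low in Rb1 (426.9, the others 473.6 to 482.4), and replicate 1 of 10w DEN3/PB was low in Mnd1 (194.6, the others 301.8 to 349.3), above each 10w MC/water liver.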

How the results depend on the processing

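Of 469 combinations of a result and an alternative other than leaving out a library, 424 were rated as kept. A called difference was kept with the same direction and side of the threshold, and a count of members when it changed little. A mitotic median was kept if it moved by less than 0.366, whatever its sign. Of the called differences, 0 changed sign. The mitotic medians, which have no test, changed sign in 6 of 112 such combinations and in 16 of 156 with 1 library left out, in 6 of the 14 comparisons within a week (DEN3, DEN30 and TAA at 5w, and phenobarbital, DEN3 and MP at 10w). The 6 were DEN3 at 5w in set 2 (0.07), TAA at 5w in set 2 (0.18), phenobarbital at 10w in set 1 (-0.17), MP at 10w in set 1 (-0.26), and DEN3 at 10w in set 2 (-0.36) and with quantile normalization (-0.002). Within array set 1 or 2 alone, with fewer arrays, the members passing numbered 1 and 0 for phenobarbital at 5w (4 with both sets). They numbered 1 and 1 for the initiated groups at 5w (6). For the same groups at 10w they numbered 1 and 5 (2), the 5 being Cdk1, Mnd1, Prc1, Rb1 and Tk1. Over all treatments in time they numbered 1 and 1 (2), namely Cdk2 in set 1, which was lower (-0.26), and Pcna in set 2. The shares of all genes that passed within a set are not given here, so these counts are not read as a result about the members. For phenobarbital at 10w set 2 gave 0 (2), and with only the groups compared phenobarbital at 5w gave 1. The members higher without overlap for DEN30 at 10w numbered 24 in set 1 and 20 in set 2 (10 with both), where fewer livers make overlap rarer. The share of all genes without overlap was not counted within the sets, so these numbers show no excess among the members.

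Leaving out 1 library gave 1 to 3 members for phenobarbital at 5w, 2 to 7 for the initiated groups at 5w (2 without MC/water replicate 4), 0 to 1 for DEN30 at 5w (1 without MC/PB replicate 1), 2 to 4 over all treatments (4 without 5w TAA/PB replicate 5, 5w MP/PB replicate 2 or 10w MC/water replicate 3), and 10 to 18 higher without overlap for DEN30 at 10w. The shares of all genes with a library left out are not given here either.

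With the replicate number as a block within a week, 4, 6 and 2 members passed for phenobarbital at 5w, the initiated groups at 5w and phenobarbital at 10w, and 3 for the initiated groups at 10w, Pcna being added. The numbers name different animals there and share the array set, and whether they share more was not tested. With the animal as a block, 1 member passed between weeks in TAA/PB, 1 in MP/PB and 4 over all treatments, and the pairing changed no other count. The shares of all genes in the fits with a block are not given here. Genes near a signal of 100, such as Mki67, Kif11 and Ccne1, lie close to the background and limit the precision.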
